A study of Mus musculus with 6 samples.

Results

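A set of 10 neuronal RNA-binding and splicing regulators was followed in somatostatin (Sst) lineage interneurons with a conditional deletion of the DNA methyltransferase gene Dnmt1. The set held the neuronal ELAV-like genes Elavl2, Elavl3 and Elavl4, the Nova genes Nova1 and Nova2, and the Rbfox genes Rbfox1, Rbfox2 and Rbfox3. The polypyrimidine tract binding protein genes Ptbp1 and Ptbp2 completed it. All 10 were set by gene name with earlier results of these data known. Counts among them therefore describe the set and do not test enrichment. They were found among the 57132 genes listed and among the 14126 genes abundant enough to be tested (a mean of at least 10 normalized counts over the 6 libraries). The RNA was total RNA of tdTomato-positive cells that had been FAC-sorted from E14.5 mouse cortex, and each group had 3 libraries. Control cells came from Sst-Cre/tdTomato embryos and Dnmt1 KO cells from Sst-Cre/tdTomato/Dnmt1 loxP2 embryos, so that both groups carried Sst-Cre and the tdTomato reporter. The sample titles separate the groups, whereas the genotype label reads Sst-Cre/tdTomato for all 6 libraries. Cre is driven by Sst in postmitotic cells of the lineage as they leave the ganglionic eminence, and cells were pooled from several embryos of a genotype. Nothing used here states that the libraries of a genotype came from different embryos, and the p-values therefore rest on a spread between libraries that could be technical.

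These proteins bind RNA and shape which exons a neuron keeps, how long its transcripts last and where they are translated. The ELAV-like proteins bind U-rich and AU-rich stretches, NOVA and RBFOX proteins act on alternative exons from defined motifs, and PTBP1 represses neuronal exons in progenitors and many other cells until its neuronal paralog PTBP2 takes over as neurons are born. Paralogs of a family recognise similar motifs, so that the makeup of a family as well as its sum describes its state. The values here are abundances of whole genes, and exon usage was not measured.

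The libraries held 7154043 to 10089981 recovered reads. Dnmt1 itself was at 2768 ± 244 normalized counts in control and 2303 ± 94.0 in Dnmt1 KO (SD, n = 3 each, log2 fold change -0.26, adjusted p = 0.0218, limma). Since undeleted exons are counted as well, this value does not measure recombination. At the protein level, the paper reports reduced DNMT1 immunofluorescence in tdTomato-positive cells of E14.5 Dnmt1 KO embryos. Dnmt1 lost its call on total read scaling (-0.0039, adjusted p = 0.972) or quantile normalization (-0.15, adjusted p = 0.0901), and without control replicate 1 (-0.20, adjusted p = 0.0576), Dnmt1 KO replicate 2 (-0.24, adjusted p = 0.0852) or Dnmt1 KO replicate 3 (-0.25, adjusted p = 0.0932). Markers of the labelled cell type were present throughout: the 12 interneuron markers, Sst and Lhx6 among them, summed to between 23300 and 25759 normalized counts in control and between 28200 and 28940 in Dnmt1 KO.

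Members of a family are close in sequence, so it was first examined whether reads could be assigned between them. The stretch of coding sequence that starts with the longest run shared by Elavl2 and Elavl4 is shown for the 3 neuronal ELAV-like genes, 5′ to 3′, with capitals marking bases that differ from Elavl2 (GENCODE M39 canonical transcripts, GRCm39, bases 403 to 492 of the Elavl2 and Elavl3 coding sequences and 424 to 513 of that of Elavl4).
Elavl2: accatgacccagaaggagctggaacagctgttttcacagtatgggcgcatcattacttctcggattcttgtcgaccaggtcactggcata
Elavl3: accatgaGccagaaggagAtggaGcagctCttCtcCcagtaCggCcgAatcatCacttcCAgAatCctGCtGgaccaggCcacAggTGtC
Elavl4: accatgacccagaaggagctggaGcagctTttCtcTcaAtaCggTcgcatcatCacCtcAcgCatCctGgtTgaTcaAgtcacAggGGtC
Over these 90 bases Elavl3 differed from Elavl2 at 22 positions and Elavl4 at 20. The longest run shared by any of the 8 pairs of coding sequences compared was 29 bases, in Elavl3 with Elavl4 and in Rbfox1 with Rbfox2, and no stretch of 31 bases was shared by any pair. For Nova1 with Nova2 and Ptbp1 with Ptbp2 the longest shared run was 14 bases. The run that Elavl3 and Elavl4 share is the following.
Elavl3 and Elavl4: ttcggcttcgtcaccatgaccaactacga

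Of the 10 members 6 changed: Elavl3 rose, and Elavl2, Elavl4, Nova1, Rbfox1 and Ptbp1 fell in Dnmt1 KO (limma, Benjamini-Hochberg adjusted p under 0.05 over all tested genes). Across all tested genes 19.2% were called, 7.64% as higher and 11.6% as lower. Among the 5519 tested genes with a mean of at least 200 normalized counts, a range that holds all 10 members, 27.9% were called. For 7 of the 10 members the groups did not overlap, against 36.7% of all tested genes. The median log2 fold change was -0.25 over the 10 members and 0.02 over all tested genes. Each member had between 150 and 6815 reads per library, which puts the counting error at between 1.21% and 8.16%. In sorted bulk cells, fewer cells of a type and less RNA per cell cannot be told apart.

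**Figure D1:**
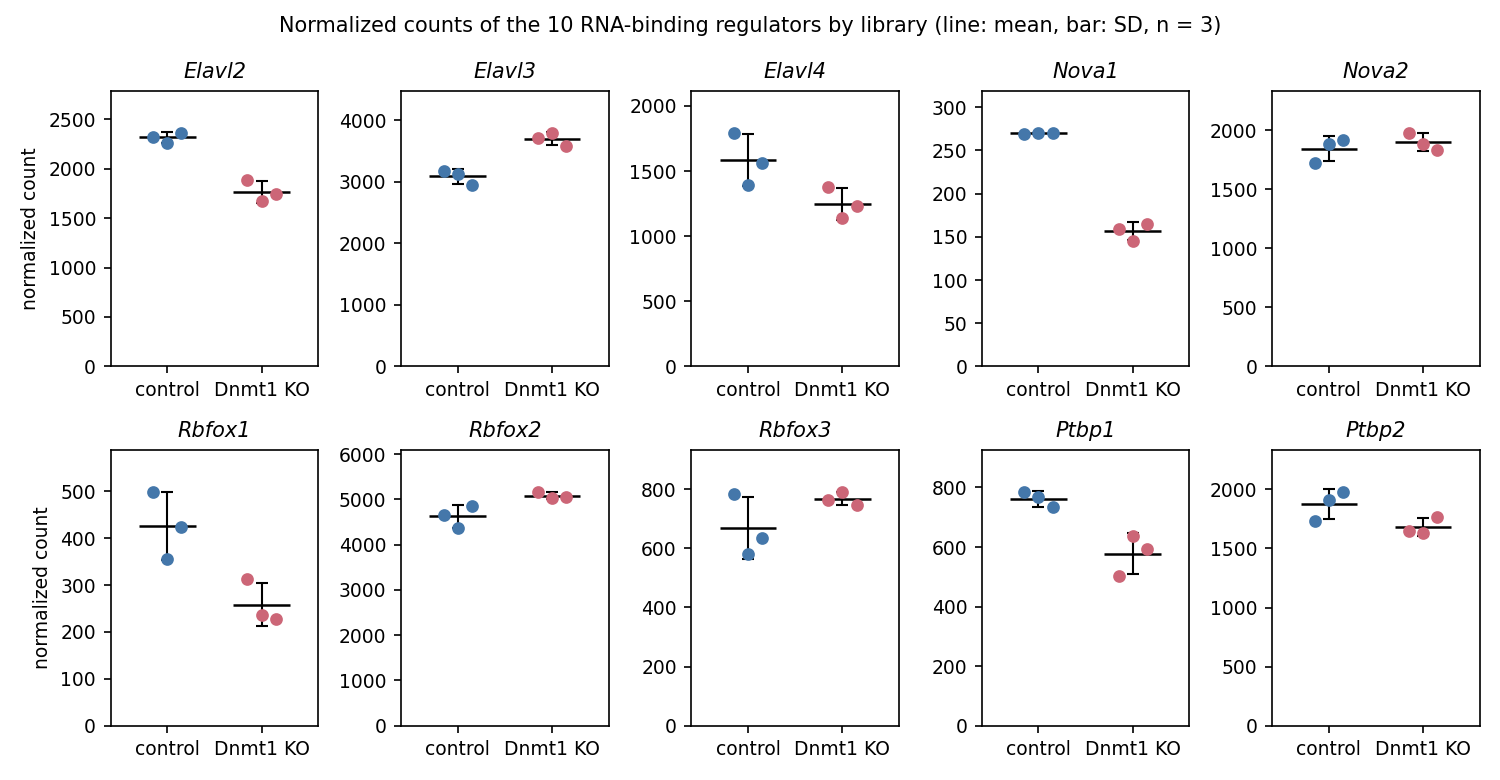
Normalized counts (y axis, from 0) of the 10 regulators in the 3 control libraries (blue) and the 3 Dnmt1 KO libraries (red), with a line at the group mean and a bar of 1 SD. Nova1 libraries sat near 270 in control and between 145.1 and 165.1 in Dnmt1 KO, while the groups overlapped for Nova2, Rbfox3 and Ptbp2.

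The 3 neuronal ELAV-like genes moved in different directions. Elavl2 (HuB, chr4:91138905-91289022, minus strand, GRCm39) encodes a stabiliser of neuronal messenger RNAs that appears early in neurogenesis. It was at 2323, 2259 and 2364 normalized counts in control replicates 1 to 3 and at 1884, 1669 and 1740 in Dnmt1 KO replicates 1 to 3. All Dnmt1 KO libraries lay below all control libraries. The log2 fold change was -0.39 (SE 0.06, 95% interval -0.53 to -0.25, adjusted p = 0.000865, limma), a fall of the mean from 2315 ± 53.0 to 1764 ± 109.

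Elavl3 (HuC, chr9:21926301-21963324, minus strand) is the pan-neuronal member that is widely used as a marker of newly born neurons. Its normalized counts were 3186, 3131 and 2955 in control and 3709, 3803 and 3590 in Dnmt1 KO, so that every Dnmt1 KO library was above every control library. Its log2 fold change was 0.26 (SE 0.06, 95% interval 0.13 to 0.39, adjusted p = 0.00811, limma), and the call was kept in all 20 alternatives. An annotated gene on the same strand, Gm49318, shares exons with Elavl3 but averaged only 71.7 normalized counts.

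Elavl4 (HuD, chr4:110060810-110209142, minus strand), known for stabilising transcripts of growing axons, was at 1795, 1394 and 1564 normalized counts in control and 1378, 1139 and 1229 in Dnmt1 KO. The groups did not overlap, but the lowest control library and the highest Dnmt1 KO library were close to each other. The log2 fold change of -0.34 (SE 0.09, 95% interval -0.55 to -0.14, adjusted p = 0.0239, limma) was called with all 6 libraries. It was not called without control replicate 1 (-0.25, adjusted p = 0.0727), Dnmt1 KO replicate 2 (-0.28, adjusted p = 0.112) or Dnmt1 KO replicate 3 (-0.33, adjusted p = 0.0827).

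Ratios of paralogs within a library do not depend on how libraries were scaled to each other. The ratio of Elavl2 to Elavl3 was 0.729, 0.721 and 0.800 in the control libraries and 0.508, 0.439 and 0.485 in the Dnmt1 KO libraries. Elavl2 had thus been closer to Elavl3 in every control library than in any Dnmt1 KO library, a log2 difference of -0.65 (exact two-sided permutation test p = 0.1, 0.16 after adjustment over 8 pairs). With 3 libraries against 3, 0.1 is the smallest p the test can give. Elavl3 to Elavl4 moved by 0.60 on the log2 scale, from a ratio of 1.97 ± 0.246 to 2.98 ± 0.328, again without overlap (exact p = 0.1, adjusted 0.16). The ratio of Elavl2 to Elavl4, the pair that fell together, was 1.48 ± 0.166 in control and 1.42 ± 0.0491 in Dnmt1 KO, with overlapping groups (exact p = 0.6, adjusted 0.6). Per kilobase of exon, Elavl3 took 46.2% ± 1.97 of the summed level of the 3 genes in control and 57.0% ± 2.28 in Dnmt1 KO, Elavl2 went from 24.5% ± 1.11 to 19.2% ± 0.663, and Elavl4 from 29.3% ± 2.40 to 23.8% ± 1.62. The summed level itself was 969 ± 46.0 normalized counts per kb in control and 941 ± 32.0 in Dnmt1 KO, and its groups overlapped.

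Nova1 and Rbfox1 had the largest falls among the 10 members. Nova1 encodes a KH-domain protein first known as an onconeural antigen and regulates exons of synaptic genes in the ventral parts of the brain, whereas NOVA2 is the prevailing form in the cortex. Nova1 (chr12:46741300-46866286, minus strand) was at 269.2, 269.6 and 270.6 normalized counts in control and at 159, 145.1 and 165.1 in Dnmt1 KO. The control libraries were nearly equal, closer than the counting error of their 218 to 285 reads would usually give. All Dnmt1 KO libraries lay far below them. Its log2 fold change was -0.78 (SE 0.10, 95% interval -1.01 to -0.56, adjusted p = 0.000164, limma), and its call held in all 20 alternatives.

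Nova2 (chr7:18659789-18699244, plus strand) was at 1722, 1885 and 1921 normalized counts in control and 1981, 1880 and 1836 in Dnmt1 KO. These groups overlapped, and the 95% interval of the log2 fold change, -0.10 to 0.19, leaves out a change of the size seen in Nova1 (0.04, adjusted p = 0.688, limma). Nova1 stood at 0.156, 0.143 and 0.141 of Nova2 in the control libraries and at 0.0803, 0.0772 and 0.0899 in the Dnmt1 KO libraries, a log2 difference of -0.83 (exact two-sided permutation p = 0.1, adjusted 0.16). In both groups Nova2 made up most of the family per kilobase of exon, 91.0% in control and 94.8% in Dnmt1 KO.

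Of the Rbfox genes, only Rbfox1 passed the test on the deposited scaling. RBFOX proteins bind the same short motif beside alternative exons, and Rbfox3 encodes NeuN, the nuclear antigen of mature neurons. Rbfox1 (chr16:5124665-7230343, plus strand), a gene of very long introns, was at 498.8, 354.8 and 424.3 normalized counts in control and 311.9, 236.1 and 227.3 in Dnmt1 KO. Libraries of a group differed more among themselves than for Nova1, but the groups did not overlap. The log2 fold change was -0.72 (SE 0.14, 95% interval -1.02 to -0.42, adjusted p = 0.00295, limma), and the call held in all 20 alternatives.

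Rbfox2 (chr15:76963189-77191303, minus strand), expressed in neurons and many other cells, was at 4649, 4364 and 4858 normalized counts in control and 5167, 5040 and 5045 in Dnmt1 KO. Every Dnmt1 KO library was above every control library, yet the log2 fold change of 0.14 (95% interval 0.01 to 0.27) did not pass (adjusted p = 0.132, limma). Rbfox3 (chr11:118380442-118802423, minus strand) was at 784, 581.8 and 634.8 normalized counts in control and 764.2, 790.6 and 746.2 in Dnmt1 KO. Control replicate 1 lay among the Dnmt1 KO libraries and the other 2 control libraries lay below them. With it, the log2 fold change was 0.21 (adjusted p = 0.159, limma), and without it 0.33 (adjusted p = 0.0104). Without control replicate 2 it was 0.12 (adjusted p = 0.428).

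Relative to its paralogs Rbfox1 was lower in every Dnmt1 KO library. Its ratio to Rbfox2 was 0.107, 0.0813 and 0.0873 in the control libraries and 0.0604, 0.0469 and 0.0450 in the Dnmt1 KO libraries (log2 difference -0.86). Its ratio to Rbfox3 went from 0.638 ± 0.0294 to 0.337 ± 0.0616 (log2 difference -0.93). Both had an exact two-sided permutation p of 0.1, adjusted 0.16, while Rbfox3 to Rbfox2 overlapped between groups (0.07, exact p = 0.6). Rbfox2 held 85.8% ± 1.76 of the summed level per kilobase of exon in control and 88.2% ± 0.520 in Dnmt1 KO, and the share of Rbfox1 was 6.87% ± 0.869 and 3.90% ± 0.622.

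**Figure D2:**
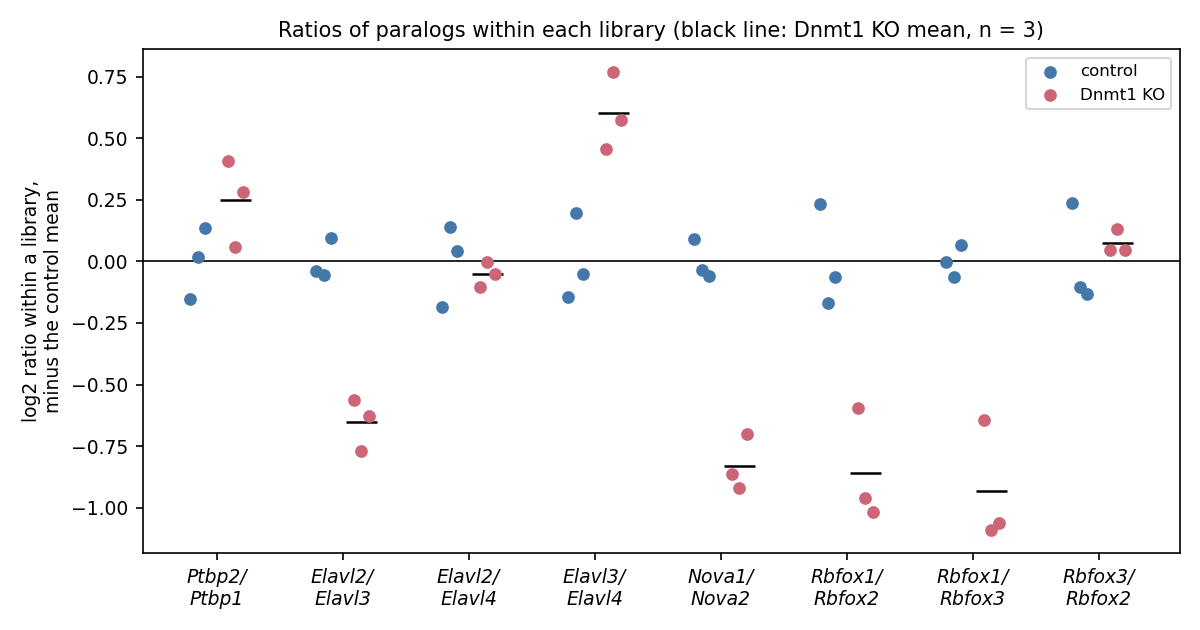
Log2 ratio of 2 paralogs within each library (y axis, minus the control mean of that pair) for the 8 pairs, with control in blue, Dnmt1 KO in red and a black line at the Dnmt1 KO mean. The groups are apart for 5 pairs, with differences between -0.93 (Rbfox1 to Rbfox3) and 0.60 (Elavl3 to Elavl4). They overlap for Ptbp2 to Ptbp1, Elavl2 to Elavl4 and Rbfox3 to Rbfox2. Pairs share members and are not separate results. Pairs of other genes were not compared, and among single genes 36.7% of all tested had groups that did not overlap.

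Ptbp1 (chr10:79690261-79700605, plus strand), the splicing repressor of progenitors, was at 785.3, 769.1 and 732.8 normalized counts in control and 504, 637.7 and 592.2 in Dnmt1 KO. All Dnmt1 KO libraries lay below the control libraries, with a log2 fold change of -0.41 (SE 0.09, 95% interval -0.60 to -0.21, adjusted p = 0.00682, limma). On the opposite strand, Plppr3 shares exonic positions with Ptbp1 and had a mean of 1375 normalized counts over the 6 libraries. Plppr3, chosen after its values were seen, moved the other way (log2 fold change 0.44, adjusted p = 0.00172, limma). The kit was stranded, but the use of strand in counting was not given in the sources used here. Ptbp2 (chr3:119509386-119578115, minus strand), the neuronal paralog, was at 1732, 1911 and 1979 normalized counts in control and 1644, 1630 and 1768 in Dnmt1 KO. The groups overlapped, with a log2 fold change of -0.16 (95% interval -0.31 to -0.0065, adjusted p = 0.139, limma), and without control replicate 1 it passed at -0.21 (adjusted p = 0.0439).

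The ratio of Ptbp2 to Ptbp1 was 2.21, 2.48 and 2.70 in the control libraries and 3.26, 2.56 and 2.98 in the Dnmt1 KO libraries. The groups overlapped through Dnmt1 KO replicate 2, and the log2 difference of 0.25 had an exact two-sided permutation p of 0.2 (adjusted 0.267). The sum of the pair per kilobase of exon was 309.5 ± 5.89 normalized counts in control and 256 ± 15.9 in Dnmt1 KO, without overlap on the deposited scaling.

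**Figure D3:**
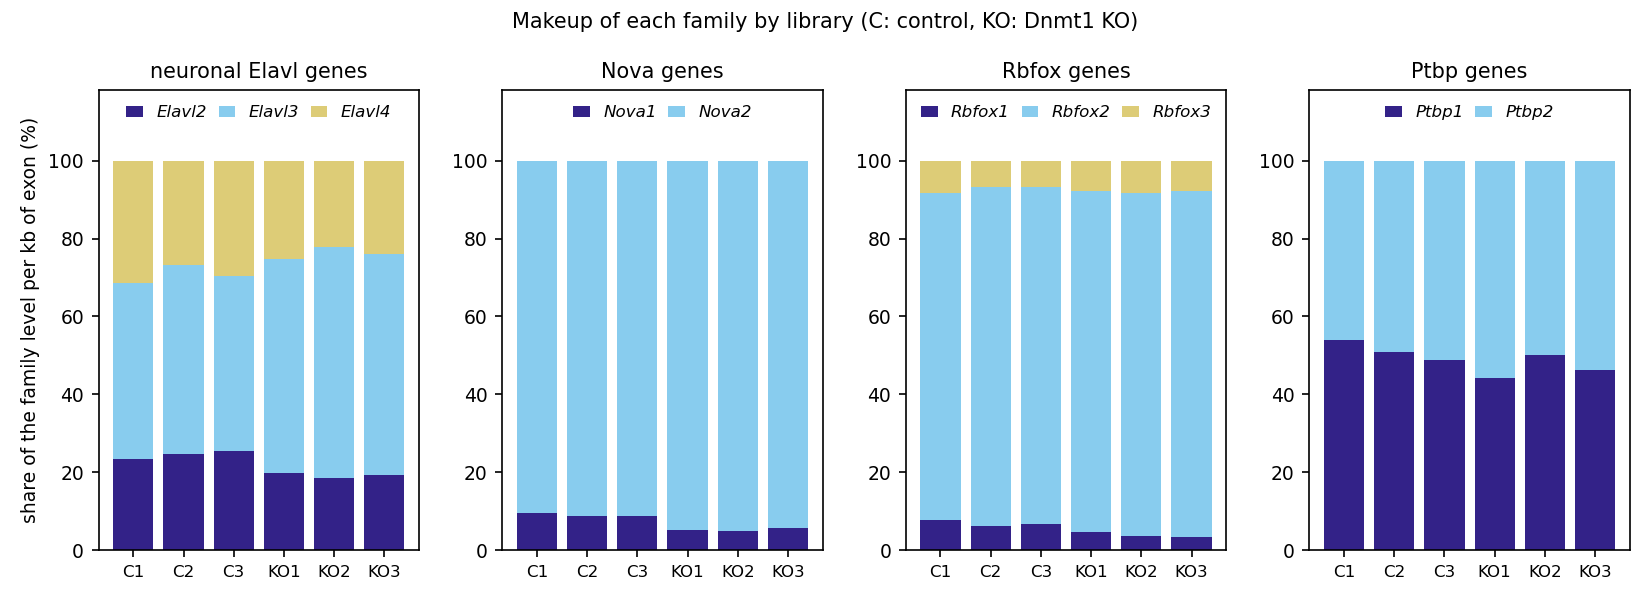
Share (%) of each gene in the summed level of its family per kilobase of exon, as 1 stacked bar per library (C, control, and KO, Dnmt1 KO). Elavl3 gains share in all 3 Dnmt1 KO libraries, Nova2 and Rbfox2 dominate their families in every library, and Ptbp1 and Ptbp2 are close to even on this length.

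The level of the members per kilobase of exon, averaged over the 6 libraries, ran from 571 normalized counts per kb for Rbfox2 and 492 for Elavl3 through Elavl4 (254), Nova2 (223), Elavl2 (209), Ptbp2 (143) and Ptbp1 (139) to Rbfox3 (50.1), Rbfox1 (35.1) and Nova1 (17.0). Neighbours in this order kept it in 6 of 6 libraries except Elavl4 above Nova2 (5 of 6), Nova2 above Elavl2 (3 of 6) and Ptbp2 above Ptbp1 (3 of 6). Exon length was taken over all annotated isoforms. With the length of the canonical transcript, chosen after seeing the data, Elavl2 moved from place 5 to 3 and Elavl4 from 3 to 5. Ptbp2 moved from 6 to 4 and Nova2 from 4 to 6. The other members kept their places, with Rbfox2 first and Nova1 last. On that length Elavl3 took 39.8% of its family in control and 50.6% in Dnmt1 KO, and Ptbp1 took 33.1% and 29.4% of the pair.

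**Figure D4:**
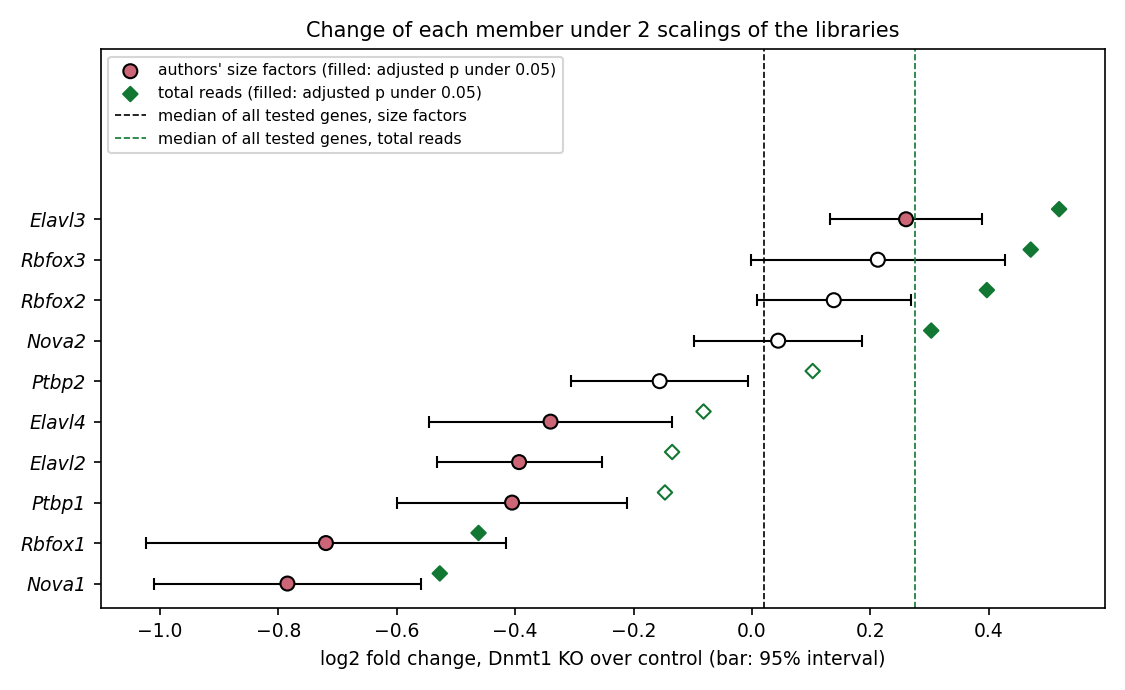
Log2 fold change of Dnmt1 KO over control (x axis) for the 10 members on the deposited scaling (circles, bars of the 95% interval) and after scaling by total reads (diamonds), filled where adjusted p was under 0.05. The dashed lines mark the median of all tested genes, 0.02 and 0.27, and Ptbp2 is the member whose value changes sign between the scalings, from -0.16 to 0.10.

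Which members were called depends on how libraries are scaled. Scaling by total reads raised the median of all tested genes by 0.25 on the log2 scale. It called 5046 of the 14126 tested genes higher and 1062 lower. On that scale Elavl3 (0.52), Rbfox3 (0.47), Rbfox2 (0.40) and Nova2 (0.30) were called higher and Nova1 (-0.53) and Rbfox1 (-0.46) lower. Elavl2 (-0.13, adjusted p = 0.110), Elavl4 (-0.08, adjusted p = 0.514) and Ptbp1 (-0.15, adjusted p = 0.225) then lost their calls in limma. Relative to the median of all genes the members hardly moved, with Elavl2 at -0.41 under both scalings and Nova1 at -0.80 under both.

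Start regions were read because DNMT1 acts on CG dinucleotides. Methylation was not among these values. RefSeq gives 250 bases before 1 annotated start per gene for 9 members, all but Rbfox2, and each sequence was found once in GRCm39. For Elavl2, Elavl4, Nova1, Ptbp2, Rbfox1 and Rbfox3 the window lay inside the annotated span of the gene. For Elavl3, Nova2 and Ptbp1 it ended within 24 bases of the outer end of the gene. The window ended within 24 bases of the canonical start in GENCODE for Elavl2, Elavl3, Elavl4, Nova2 and Ptbp1, 416 bases from it for Ptbp2 and 732 for Nova1. For Rbfox3 and Rbfox1 it lay 149097 and 463579 bases from it, at another start, and their counts were left out. CG (the letters C then G, on either strand alike) occurred 20 times in the window of Elavl3, 14 times for Elavl2 and 4 for Elavl4. It occurred 11 times in the window of Nova1, 10 for Nova2, 17 for Ptbp1 and 23 for Ptbp2. Over all 32536 such windows of RefSeq the median was 6 and the quartiles 2 and 16, and 92.2% held at least 1 CG. The windows of the gene that rose and of the gene that fell most are shown 5′ to 3′ on the strand of the gene, with each CG in capitals: Elavl3 at chr9:21963320-21963569 and Nova1 at chr12:46865551-46865800, both on the minus strand.
Elavl3: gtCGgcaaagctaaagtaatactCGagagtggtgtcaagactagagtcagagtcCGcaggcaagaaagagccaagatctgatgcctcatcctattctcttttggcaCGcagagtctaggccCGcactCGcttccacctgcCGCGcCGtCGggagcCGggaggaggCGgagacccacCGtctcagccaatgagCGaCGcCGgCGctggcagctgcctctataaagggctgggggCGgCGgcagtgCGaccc
Nova1: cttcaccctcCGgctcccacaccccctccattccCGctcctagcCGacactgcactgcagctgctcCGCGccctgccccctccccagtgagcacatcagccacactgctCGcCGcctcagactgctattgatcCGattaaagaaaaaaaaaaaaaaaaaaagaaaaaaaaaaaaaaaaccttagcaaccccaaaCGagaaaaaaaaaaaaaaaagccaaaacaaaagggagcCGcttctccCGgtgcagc
A link between these CG counts and the change of any member was not tested.

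Beyond the 10 members, 30 of 32 listed other RNA-binding regulators of neurons were tested. This list and those below were also chosen with earlier results of these data known, so their shares do not test enrichment. Of these 4 were higher, 8 lower and 18 not called (40.0% called, against 19.2% of all tested genes and 27.9% of those with a mean of at least 200, median log2 fold change -0.06 against 0.02). Celf6 (lower) and Mbnl2 (not called), chosen after their values were seen, had means under 200 in both groups. Celf1, a regulator of splicing and decay, fell from a mean of 2503 to one of 1911 normalized counts (log2 fold change -0.39, SE 0.07, adjusted p = 0.00116, limma). Stau2, which carries RNA into dendrites, fell by 0.46 on the log2 scale (adjusted p = 0.00296). Srrm3 and Srrm4, activators of neuronal microexons, rose by 0.47 (adjusted p = 0.00863) and 0.27 (adjusted p = 0.0164). Elavl1 (HuR) and Ptbp3, further paralogs of 2 member families, were both chosen after their values were seen. Elavl1 was lower at -0.21 (adjusted p = 0.0442, limma) and Ptbp3 at -0.47 (adjusted p = 0.0237, limma). After scaling by total reads 14 of the 30 were called higher, against 5046 of all 14126 tested genes. On that scale Celf1 was at -0.13 (adjusted p = 0.137, limma) and Stau2 at -0.20 (adjusted p = 0.0986, limma).

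General splicing factors were read as a further list. Of 32 SR and hnRNP genes, 2 were higher, 5 lower and 25 not called (21.9% called, against 19.2% of all tested genes and 27.9% of those with a mean of at least 200, median log2 fold change 0.01). After scaling by total reads 20 of the 32 were higher, against 5046 of all 14126 tested genes. Hnrnpa0 rose by 0.40 (adjusted p = 0.00155, limma) and Srsf6 by 0.32 (adjusted p = 0.00955). Hnrnpf fell by 0.40 (adjusted p = 0.00197) and Hnrnpa3 by 0.33 (adjusted p = 0.00874).

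Of 18 genes known as RNA targets of the members, 2 were higher, 8 lower and 8 not called (55.6% called, against the same 19.2% and 27.9%, median log2 fold change -0.13). Kcnj6, Cdkn1a and Vamp1, chosen after their values were seen, lay below a mean of 200, and Kcnj6 and Cdkn1a were among those lower. Cdkn1a was at 74.1, 25.5 and 31.2 normalized counts in control and 9.29, 12.6 and 24.4 in Dnmt1 KO. Dab1, the reelin adaptor whose exons NOVA2 regulates in mouse cortex, fell from 367.3 ± 20.1 to 184.7 ± 28.3 normalized counts (log2 fold change -0.997, SE 0.12, adjusted p = 5.88e-05, limma). Gap43, an axon growth transcript bound by ELAVL4, fell by 0.68 (adjusted p = 8.2e-05). Flna, an actin crosslinker with an exon under PTBP1, fell by 0.51 (adjusted p = 0.000133), and Dcc, a netrin receptor with a NOVA exon, fell by 0.59 (adjusted p = 0.000157). The glycine receptor gene Glra2, chosen after its values were seen, was higher (log2 fold change 0.63). Dlg4, the PTBP-regulated gene of PSD-95, also chosen after its values were seen, overlapped between groups (-0.03, adjusted p = 0.842, limma). After scaling by total reads 4 of the 18 were higher and 7 lower, against 5046 higher and 1062 lower of all 14126 tested genes. A link between any target and a member was not tested.

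The circuit that keeps PTBP1 high outside neurons was also read. REST and its cofactors silence miR-124 genes, and miR-124 represses Ptbp1. Of its 7 tested genes 0 were called in limma, edgeR or DESeq2, and 0 had an unadjusted p under 0.05 in any of these (median log2 fold change 0.11). In limma 19.2% of all tested genes were called, and 7 genes are too few to set 0 apart from that share. Rest was at 249.8 ± 2.51 normalized counts in control and 272.6 ± 24.1 in Dnmt1 KO (0.12, adjusted p = 0.434), and the host gene Mir124-2hg at 845 ± 54.1 and 924.1 ± 31.8 (0.13, adjusted p = 0.24). The other host gene, Mir124a-1hg, was at 697.5 ± 15.5 and 658.7 ± 16.8 (-0.08, adjusted p = 0.451), the gene of this list whose groups did not overlap.

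**Figure D5:**
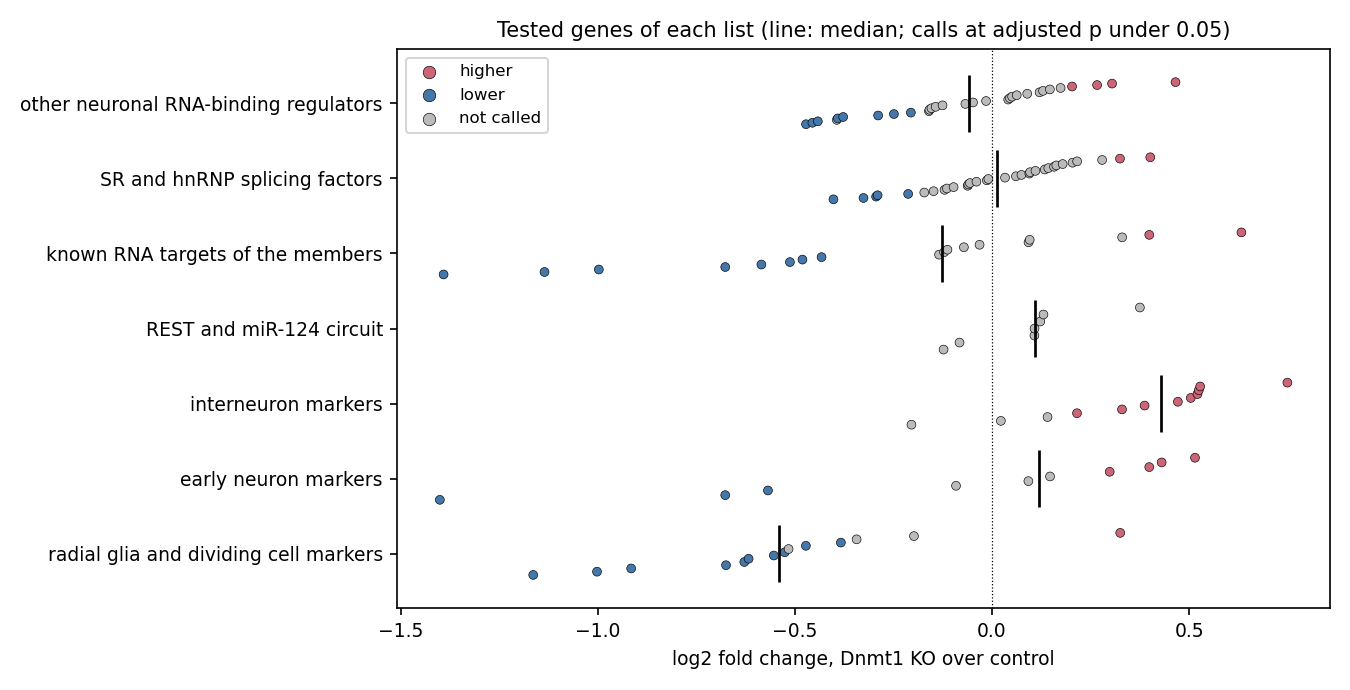
Log2 fold change (x axis) of every tested gene of 7 lists, each a dot coloured by its call, with a vertical line at the median of the list. Medians run from -0.54 for radial glia and dividing cell markers to 0.43 for interneuron markers, with the other neuronal RNA-binding regulators at -0.06.

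Markers of other cells moved in the same libraries. The counts below stand beside 7.64% of all tested genes called higher and 11.6% called lower. Of 14 radial glia and dividing cell markers 10 were lower, 1 was higher (Sox2, 0.33) and 3 were not called (median -0.54), and their sum lay between 11808 and 11985 normalized counts in control and between 8249 and 8413 in Dnmt1 KO. Vim, the most abundant, fell by 0.38, Nes fell by 0.62 and Pax6 fell by 1.16. Marker values here are on the deposited scaling unless another is named. Scaling by total reads raised the median of all tested genes by 0.25 on the log2 scale. The cells had been gated on tdTomato. Elavl2, Elavl4, Nova1, Rbfox1 and Ptbp1 fell in the libraries in which these markers fell, and the part of these markers in the member changes was not tested. Of 12 interneuron markers 9 were higher and 3 not called (median 0.43), with the log2 fold change of Maf at 0.75, Dlx1 at 0.52 and Gad1 at 0.53. Sst itself was at 2978 ± 112 normalized counts in control and 3284 ± 153 in Dnmt1 KO (0.14, adjusted p = 0.134, limma), and passed after scaling by total reads (0.40, adjusted p = 0.000537) or quantile normalization (0.24, adjusted p = 0.0114). Of 10 early neuron markers 4 were higher, 3 lower and 3 not called (median 0.12): Stmn2 rose by 0.51 and Nefl fell by 1.40. Excitatory lineage markers summed to between 5043 and 5373 normalized counts in control and between 5054 and 5188 in Dnmt1 KO (1 of 10 higher, 3 lower). Much of this sum was Bcl11b (mean 2513, not called), and without it, a sum chosen after seeing the data, the others lay between 2684 and 2839 in control and between 2587 and 2603 in Dnmt1 KO. Markers of vessels, blood and microglia were low, between 788 and 947 in all 6 libraries summed (10 of 12 tested, 1 lower), and no marker of either list was at 0 in all libraries.

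For each member that changed, the genes of most similar pattern were sought among 7911 genes with a mean of at least 100, by the root mean square difference of centred log2 values over the 6 libraries. The closest were Ckap5 to Elavl2 (0.0222), Pou6f1 to Elavl3 (0.00945), Tnik to Elavl4 (0.0365), Ptch1 to Nova1 (0.0341), Ctnnd1 to Rbfox1 after a pseudogene (0.103) and Btbd3 to Ptbp1 (0.0338). Rbfox1, whose libraries varied most, had no gene as close as those of the other members.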

How the data were processed

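The 6 libraries were grouped by sample title. RNA of the sorted cells was depleted of ribosomal RNA and sequenced with a stranded low-input kit. Tools named in the submitters' notes are Salmon 1.10.3, STAR 2.7.11b, DESeq2 1.42.1 and Trim Galore 0.6.10, with the GRCm39 build. The deposited signal is a table of normalized counts, in which the authors divided estimated reads by 1 size factor per library. All values (100%) were whole multiples of 1 step per library (tolerance 0.001, step 0.740 to 1.23), so reads were recovered by division. A count of 0 allows 3 reads, or 2.22 to 3.70 normalized counts. Genes with a mean of at least 10 were fitted as log2(normalized count + 1) with limma 3.58.1 (trend, group only, two-sided) in R 4.3.3. Fold changes on this scale understate those of low genes. edgeR 4.0.16, DESeq2 1.42.0 and voom were alternatives on recovered reads, beside other scalings, filters and pseudocounts, a replicate block and each library left out. The fits were tested on simulated data. Positions and lengths came from GENCODE M39. Columns of other samples numbered 0.

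The members and gene lists were chosen with earlier results of these data known. Named genes were the members, Dnmt1, Sst, up to 4 genes of smallest p per list, the closest in pattern to each changed member and the most abundant marker of each list of other cells. Others are marked as chosen after their values were seen, except Lhx6, Sox2 and Gm49318, which are named in passing. Deposited tables of the authors' own differential expression and enrichment were not used.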

Additional observations from a re-analysis of the deposited data

How the results depend on the processing

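The number of members called stayed at 6 in most of the 20 alternatives. Elavl3, Nova1 and Rbfox1 were called in the same direction in all 20, Elavl2 and Ptbp1 in 19 and Elavl4 in 16. Scaling by total reads called 6108 genes (5046 higher and 1062 lower, 82.6% higher against 39.7% on the deposited scaling), with 4 members higher and 2 lower. Of changed genes 51.5% were higher after quantile normalization and 50.3% in protein-coding genes alone. Quantile normalization called 2 members higher, Elavl3 and Rbfox2 (0.28, adjusted p = 0.003, limma). Leaving out each library in turn gave between 1742 and 2512 genes changed, 528 to 973 higher and 1214 to 1539 lower, and between 5 and 7 members, of which 1 to 2 were higher and 4 to 5 lower. The fewest genes were called without Dnmt1 KO replicate 3 (1742, 528 of them higher) and Dnmt1 KO replicate 2 (569 higher). The log2 difference of the Elavl2 to Elavl4 ratio lay between -0.14 and 0.018 and turned positive only without control replicate 2. The cause of these changes was not tested, beside the smaller number of libraries.

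Replicate numbers did not pair the libraries: deviations of same-numbered libraries correlated at -0.02, 0.06 and -0.03. With the replicate block 2528 genes (945 higher, 1583 lower) and 6 members were called. Permuted within replicate number, the ratios allow no p under 0.25. Shares per family kept their direction with no length or the canonical length. A length scales a gene alike in all libraries, so for the Nova and Ptbp pairs this outcome was nearly fixed in advance. With 3 libraries per group the ratio tests cannot pass 0.05, and the 4 members not called are not shown to be unchanged.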
